A study of Mus musculus with 2 samples.

Results

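The genes described here make, bind or break down hyaluronan in mouse primary chondrocytes, the cells of cartilage. They are the 3 hyaluronan synthases (Has1, Has2, Has3), the receptors Cd44 and Hmmr, the binding matrix proteins Vcan and Tnfaip6, and the degrading proteins Hyal1, Hyal2 and Cemip. These 10 of the 22156 genes in the table were named for their known roles, and the rule that picks them uses no measured value. The set was nevertheless chosen with earlier results of these data known. All 10 had counts in at least 1 library and 9 had enough counts to be tested.

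The study asked what loss of Myl3, a myosin light chain, does to cartilage cells. The data hold 1 control library and 1 Myl3-KO library of untreated primary chondrocytes. For such cells the study's methods name rib and articular cartilage of newborn mice as the source, and growth as a monolayer with serum. In Myl3-KO mice (Col2a1-Cre; Myl3 flox/flox) a Cre recombinase driven by the promoter of Col2a1, the main cartilage collagen gene, removes the floxed Myl3 gene. The controls are called WT in the labels, while the study's methods describe Myl3 flox/flox littermates without Cre. Both genotypes were kept on a C57BL/6J background, and the floxed allele came from 1 embryonic stem cell clone. The sources used here do not give the sex of the animals behind each library, nor whether several animals were pooled.

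Hyaluronan is a very long, unsulphated sugar chain that synthases in the plasma membrane build from UDP-glucuronic acid and UDP-N-acetylglucosamine and push out of the cell. In cartilage it is the backbone to which aggrecan is bound by link protein, and the cell holds this coat through CD44. Hyaluronidases and CEMIP cut the chain, and proteins such as versican and TSG-6, the product of Tnfaip6, bind it in other or inflamed tissues.

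The expected counts summed to 17612434.91 (control) and 13477976.98 (Myl3-KO), and the floor of 3 counts stands for 0.170 and 0.223 CPM (counts scaled to the library total). With 0 counts of Myl3 in either library, the deletion cannot be checked from these data. The labelled cell type was weakly marked. Of 11 chondrocyte markers 4 could be tested, and the summed level of all 11 was 58.3 CPM in the control and 45.9 in Myl3-KO. Col2a1 had 30 and 27 counts, and the defining genes Acan, Matn1, Matn3 and Hapln1 stood at 0 in both. Sox9, a transcription factor of cartilage, had 866 and 480 counts (49.2 and 35.6 CPM) and was called lower, and the sum was lower through this gene. Col2a1, Col11a1 (121 and 99 counts) and Chad (7 and 8) were not called, with log2 ratios of 0.23, 0.10 and 0.58. The 4 tested markers had a median log2 ratio of 0.17. Markers of fibroblasts summed to 18526 and 22016 CPM, led by Col1a2 with 211652 and 189213 counts and Fn1 with 53988 and 60449, while Thy1 had 0. Of the 8 fibroblast markers tested 4 were called higher and 3 lower, the latter being Dcn (631 and 155 counts), Lum (272 and 81) and Postn (11656 and 8467). Immune markers summed to 5.06 and 4.67 CPM, endothelial markers to 1.65 and 3.04, and erythroid markers to 0 and 0.0742. Muscle markers summed to 4.49 and 21.8 CPM through 1 gene, Cdh15, with 73 and 290 counts, while Myod1, Myog, Pax7, Myf5 and Des had 0. The part of these differences in the results below was not tested, and in bulk RNA fewer cells of a type and less RNA per cell cannot be told apart.

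With 1 library per genotype, a two-sided exact binomial test compared each gene's reads with the library totals, over the 12431 genes with at least 10 counts in all, with Benjamini-Hochberg adjustment. A gene was called at an adjusted p under 0.05. Such a call compares these 2 libraries and not the genotypes, and all intervals given are 95% intervals that cover counting error only. By this rule 18.6% of all genes tested were called higher in Myl3-KO and 16.8% lower, with a median log2 ratio of 0.02. With a log2 ratio of at least 1 in size as a further condition, these shares were 1.15% and 0.394%.

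Of the 9 hyaluronan genes tested, 2 were called higher (Vcan and Cemip) and 2 lower (Hmmr and Tnfaip6), against 18.6% and 16.8% of all genes. The median log2 ratio of the 9 was -0.03 and none reached a size of 1. The promoters of these 4 genes are shown so that their sequences can be read beside the values that follow. Each line gives the 250 bases before the RefSeq transcription start on GRCm38.p6, 5′ to 3′ on the gene's strand. Matches to short words known from promoters, searched on both strands, are in capitals. The words are CCAAT, the GC box GGGCGG, the TATA box word TATAAA, the word GTGGGAA bound by the Notch factor RBPJ, and the CHR words TTTGAA and also TTTAAA, which are found in promoters of cell cycle genes. On the reverse strand CCAAT reads ATTGG, and GGGCGG reads CCGCCC.
Hmmr, chr11:40733438-40733687, minus strand: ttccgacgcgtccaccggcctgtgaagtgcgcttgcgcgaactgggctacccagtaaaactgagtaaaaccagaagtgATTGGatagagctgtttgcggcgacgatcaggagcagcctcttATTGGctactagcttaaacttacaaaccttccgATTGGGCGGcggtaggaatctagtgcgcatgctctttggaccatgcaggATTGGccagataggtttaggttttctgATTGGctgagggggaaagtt
Vcan, chr13:89742513-89742762, minus strand: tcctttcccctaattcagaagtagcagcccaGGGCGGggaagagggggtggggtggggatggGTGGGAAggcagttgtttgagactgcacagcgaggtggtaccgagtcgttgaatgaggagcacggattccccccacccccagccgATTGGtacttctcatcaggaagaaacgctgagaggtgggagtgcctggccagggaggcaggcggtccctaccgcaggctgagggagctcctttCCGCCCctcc
Cemip, chr7:84086506-84086755, minus strand: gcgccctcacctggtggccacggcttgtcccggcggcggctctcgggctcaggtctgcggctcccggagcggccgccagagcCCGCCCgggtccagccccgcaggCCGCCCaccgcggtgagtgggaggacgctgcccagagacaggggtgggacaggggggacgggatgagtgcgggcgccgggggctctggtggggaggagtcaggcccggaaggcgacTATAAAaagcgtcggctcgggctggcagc
Tnfaip6, chr2:52037863-52038112, plus strand: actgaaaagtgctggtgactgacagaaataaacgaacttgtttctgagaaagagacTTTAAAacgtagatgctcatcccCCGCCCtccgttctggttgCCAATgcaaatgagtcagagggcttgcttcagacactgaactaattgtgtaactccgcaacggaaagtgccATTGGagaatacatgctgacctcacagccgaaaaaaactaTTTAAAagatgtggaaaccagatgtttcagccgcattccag

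The search covered these bases and the first 50 bases of each gene, and 8 of the 10 genes were in the promoter table, all but Has2 and Has3. Of 32851 promoters of the same length, 37.4% held CCAAT, 27.6% a CHR word, 35.7% GGGCGG, 13.6% TATAAA and 6.38% GTGGGAA. The Hmmr promoter held CCAAT 5 times, all on the reverse strand, with first bases at -172, -129, -96, -47 and -20 from the start. The word TTTGAA lay at 9 bases after the start, outside the printed stretch, and the GGGCGG at -93 overlapped the CCAAT match at -96. As many CCAAT words were found in 0.271% of promoters, and as many together with a CHR word in 0.0517%. The Vcan promoter held 1 CCAAT, 2 GC boxes and the single GTGGGAA found in the 8 promoters. Cemip had 2 GC boxes and the single TATAAA, at -29, where a TATA box usually lies. Tnfaip6 had 2 CCAAT words, 2 TTTAAA words and 1 GC box. These matches are a description of the letters and not of binding sites.

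The synthases were present at low levels, and Has2 held most of their reads in both libraries. Has2 (chr15:56665627-56694539), the synthase that makes most hyaluronan in connective tissues, had 296 control and 211 Myl3-KO counts, or 16.8 and 15.7 CPM. Its log2 ratio was -0.10 (-0.36 to 0.16), which was not called (exact binomial test, adjusted p = 0.613). Has3 (chr8:106870242-106884566), which makes shorter chains, had 108 and 81 counts, with a log2 ratio of -0.03 (-0.46 to 0.40) and no call (adjusted p = 0.983 by the same exact test). Both counts were thus lower in the smaller library, and both scaled ratios had intervals that include 0.

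Has1 (chr17:17843323-17855205) had 1 control and 6 Myl3-KO counts. It was not tested, and the ratio of 7.84, taken from the counts without the floor, has a counting interval of 0.951 to 361. The control count lies under the floor, and with so few reads the ratio of Has1 is poorly bounded. Of all synthase counts, Has2 took 73.1% (Clopper-Pearson interval 68.5% to 77.3%, of 405 counts) in the control and 70.8% (65.3% to 75.9%, of 298) in Myl3-KO. Has3 took 26.7% and 27.2% of them. These shares overlapped between the libraries for both genes.

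Has3 overlaps Chtf8 on the opposite strand, a gene with 5318 and 3847 counts. The strand used in counting is not given in the sources used here, so reads of the 2 genes cannot be told apart where they overlap.

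**Figure D1:**
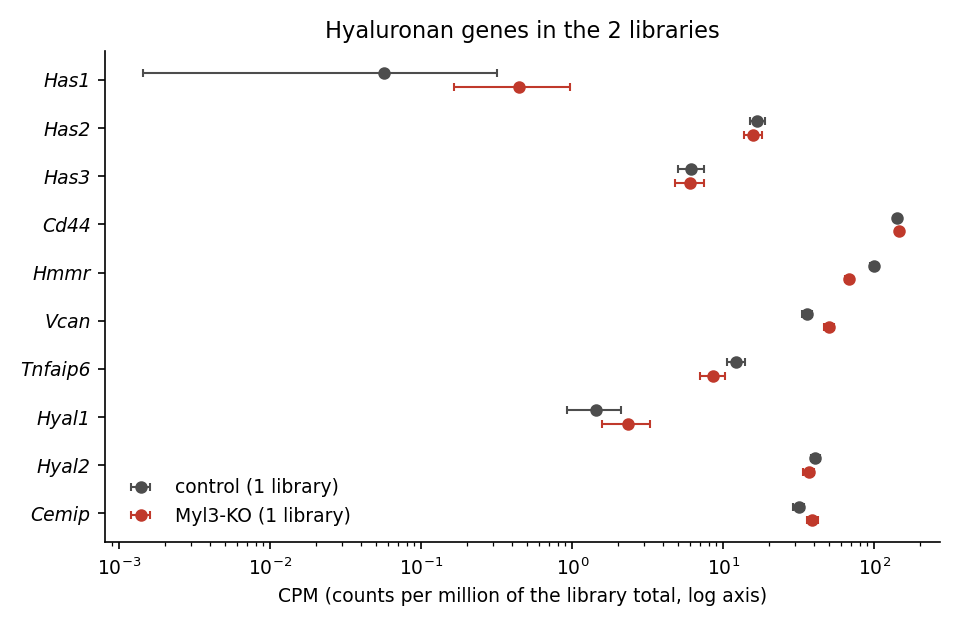
Level of each of the 10 hyaluronan genes in the control (grey) and Myl3-KO (red) library, in CPM on a log axis; points are single libraries and bars the 95% Poisson counting interval. Hmmr and Tnfaip6 lie lower and Vcan and Cemip higher in Myl3-KO, while the levels of Has2, Has3 and Cd44 nearly coincide and Has1 is at 1 and 6 counts.

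The 2 receptors differed from each other. Cd44 (chr2:102811141-102901665), the main surface receptor for hyaluronan on chondrocytes, had 2487 control and 1959 Myl3-KO counts, which is 141 and 145 CPM. The log2 ratio was 0.04 with an interval of -0.04 to 0.13, and it was not called (exact binomial test, adjusted p = 0.506). The interval leaves room for a Cd44 level between 0.970 and 1.09 times the control, as far as counting error goes.

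Hmmr (chr11:40701395-40733422) encodes RHAMM, a hyaluronan-binding protein that in dividing cells sits on the mitotic spindle. Its counts were 1740 (control) and 916 (Myl3-KO), or 98.8 and 68.0 CPM, and the intervals of the 2 levels did not overlap. The log2 ratio was -0.54 (-0.66 to -0.42), so that Hmmr was lower in the Myl3-KO library at 0.688 times the control (exact binomial test, adjusted p = 5.96e-19). Between Cd44 and Hmmr the log2 ratios differed by 0.58 (0.44 to 0.73), a value that does not depend on how the libraries are scaled. Cd44 had 1.43 times the counts of Hmmr in the control and 2.14 times in Myl3-KO.

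Genes of the spindle and of mitosis were lower together with Hmmr. Of the 12 listed and tested, 10 were called lower and 0 higher, with a median log2 ratio of -0.31, against 16.8% of all genes called lower and a median of 0.02. The list was written with earlier results of these data known, and no set test was made, so these counts are a description only. The largest changes were in Cdk1, the kinase that starts mitosis, at -0.52 (4417 to 2360 counts), and in its partner Ccnb1 at -0.48 (4507 to 2473). Top2a, a topoisomerase of dividing cells, was at -0.34 (15737 to 9493), Kif11 and Aurka at -0.36, Bub1 at -0.32, Tpx2 at -0.29, Brca1 at -0.21, Plk1 at -0.20 and Cenpe at -0.14.

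The other two were not called. Mki67, the gene of the proliferation marker Ki-67, had 7698 and 5796 counts and a log2 ratio of -0.02 (adjusted p = 0.519 by the exact binomial test), and Cenpf was at -0.06 (adjusted p = 0.267 by the same exact test). The log2 ratio of Hmmr was below that of 10 of the 12 genes, with intervals of the difference that did not include 0. It differed from that of Cdk1 by -0.02 (-0.16 to 0.12) and from that of Ccnb1 by -0.06 (-0.20 to 0.08). Against Mki67 the difference was -0.52 (-0.64 to -0.39). All 11 of these genes with a promoter in the table held a CCAAT word in the same window, 9 of 11 held a CHR word and 9 of 11 the GC box, against 37.4%, 27.6% and 35.7% of all promoters. A gene was counted if any of its listed promoters held the word, while the shares are per promoter, so the measures are not fully alike. Whether a difference in the share of dividing cells goes with the lower Hmmr was not tested.

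**Figure D2:**
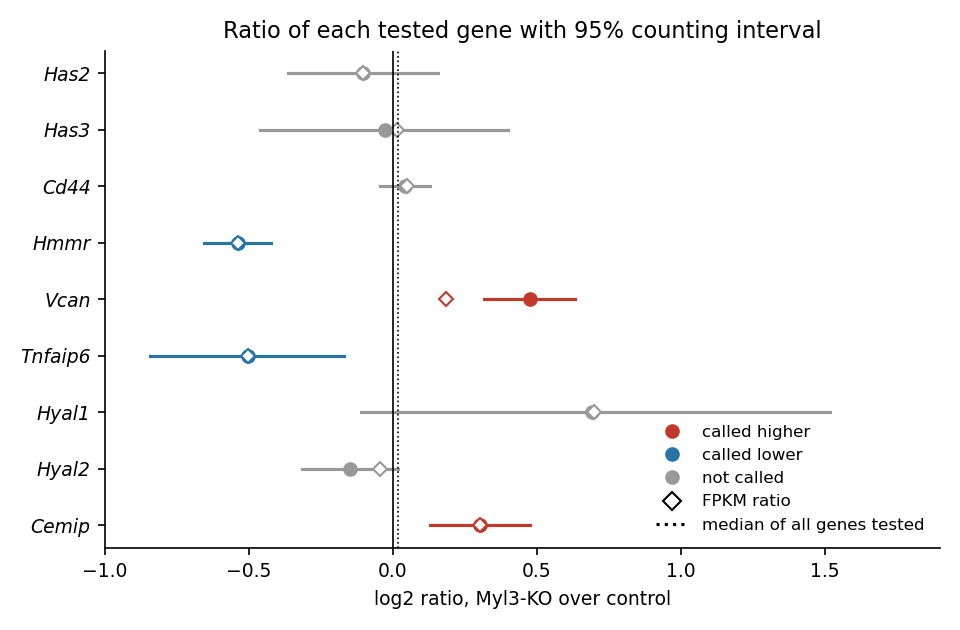
Log2 ratio of Myl3-KO over control for the 9 hyaluronan genes tested (filled points, by role from synthases to degrading proteins) with 95% counting intervals; open diamonds are ratios of FPKM and the dotted line is the median of all genes tested, 0.02. The intervals of Hmmr and Tnfaip6 lie below 0 and those of Vcan and Cemip above it, and the FPKM ratio of Vcan (0.18) lies outside its interval (0.32 to 0.63).

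The 2 binding proteins of the matrix moved in opposite directions. Vcan (chr13:89655312-89742509) encodes versican, a large proteoglycan that binds hyaluronan in loose and developing tissue. Its counts were 632 (control) and 672 (Myl3-KO), so its raw count was higher in the smaller library, and its level was 35.9 and 49.9 CPM. The log2 ratio was 0.47 (0.32 to 0.63), and Vcan was called higher at 1.39 times the control (exact binomial test, adjusted p = 4.68e-08).

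Tnfaip6 (chr2:52038009-52056686) encodes TSG-6, which binds hyaluronan and transfers to it heavy chains of inter-alpha-inhibitor. Its counts were 213 (control) and 115 (Myl3-KO), or 12.1 and 8.53 CPM, and the intervals of these levels did not overlap. The log2 ratio of -0.50 (-0.84 to -0.17) was called lower (exact binomial test, adjusted p = 0.00999). By counts, Vcan and Tnfaip6 differed by 0.98 (0.61 to 1.35) in log2 ratio. Vcan had 2.97 times the counts of Tnfaip6 in the control and 5.84 times in Myl3-KO. By FPKM their log2 ratios were 0.18 and -0.50, a narrower gap. Tnfaip6 and Hmmr had nearly the same ratio, with a difference of -0.04 (-0.39 to 0.32) for Hmmr less Tnfaip6.

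For Vcan the 2 deposited measures differed. Its FPKM, which also divides by transcript length, was 4.18 (control) and 4.75 (Myl3-KO), a log2 ratio of 0.18 against 0.47 from the counts. The transcript length that count and FPKM together imply was 8585 bases in the control and 10497 in Myl3-KO. For genes with several transcripts this length depends on how the authors' software shared the reads among them. Of the 10562 genes tested with at least 1 FPKM in each library, 1.95% changed at least as much in implied length and 1.02% rose at least as much, while 67.8% changed by under 0.02 on the log2 scale.

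Versican transcripts differ mainly in 2 long exons that carry attachment sites for chondroitin sulphate chains. In GENCODE M21 form V0 (12427 bases) holds both, V1 (8332 bases) only the longer one of 5217 bases, V2 (5702 bases) only that of 2880 bases, and V3 (2321 bases) neither. The implied length thus lay just above V1 in the control and between V1 and V0 in Myl3-KO. It does not say which transcripts were present, since mixtures of forms and other ends of the transcript can give the same length. The junctions that tell the forms apart follow, with exons numbered as in V0 and the first 25 bases of the following exon in capitals. Exon 6 is at chr13:89712205-89712498, exon 7 at chr13:89702918-89705797, exon 8 at chr13:89688285-89693501 and exon 9 at chr13:89685079-89685192, all on the minus strand of GRCm38.
Exon 6 to 7 (V0 and V2): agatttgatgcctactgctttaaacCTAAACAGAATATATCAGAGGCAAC
Exon 7 to 8 (V0): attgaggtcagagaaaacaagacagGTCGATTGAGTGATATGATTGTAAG
Exon 6 to 8 (V1): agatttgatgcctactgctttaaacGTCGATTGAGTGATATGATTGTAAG
Exon 7 to 9 (V2): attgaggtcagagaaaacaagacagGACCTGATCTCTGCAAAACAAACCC
Exon 6 to 9 (V3): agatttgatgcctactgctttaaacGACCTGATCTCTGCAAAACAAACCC

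The other hyaluronan genes kept their implied length more closely. Hyal2 went from 1706 to 1590 bases, Has3 from 5427 to 5272 and Cd44 from 4083 to 4066. For Hmmr the implied length was 3893 bases in the control and 3892 in Myl3-KO.

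**Figure D3:**
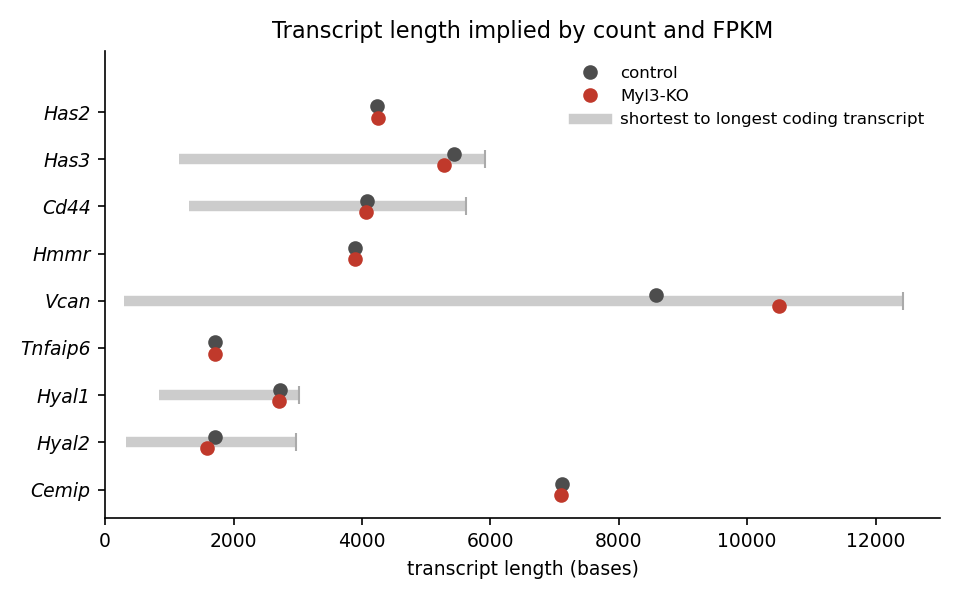
Transcript length in bases implied by the deposited count and FPKM in the control (grey) and Myl3-KO (red) library for the 9 hyaluronan genes tested; grey bars span the shortest to the longest protein-coding transcript in GENCODE M21. Vcan moved from 8585 to 10497 bases, and each of the other 8 genes changed by less.

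Of the degrading proteins, Cemip was called higher and the 2 hyaluronidases were not called. Cemip (chr7:83932857-84086502) encodes a hyaluronan-binding protein needed for hyaluronan breakdown in fibroblasts. Its counts were 555 (control) and 524 (Myl3-KO), or 31.5 and 38.9 CPM with intervals that did not overlap. Its log2 ratio was 0.30 (0.13 to 0.48), and the exact binomial test gave an adjusted p of 0.00276. FPKM gave the same ratio, with 4.43 in the control and 5.47 in Myl3-KO.

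Hyal2 (chr9:107567945-107572779), a hyaluronidase anchored to the cell surface, had 717 and 495 counts and a log2 ratio of -0.15 (-0.32 to 0.02), which was not called (exact binomial test, adjusted p = 0.172). Hyal1 (chr9:107576927-107581710), the lysosomal hyaluronidase, had 25.43 and 31.45 expected counts and a log2 ratio of 0.69 (-0.11 to 1.52), not called either (adjusted p = 0.168 by the same exact test). The interval of Hyal1 is wide because so few reads were counted. Hyal1 overlaps Naa80 (193.57 and 155.55 counts) and Hyal3 (11 and 16) on the same strand, so its reads are uncertain. Both hyaluronidase genes lie on chromosome 9 with Myl3, at distances of 3.16 and 3.17 Mb.

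Hyal2 and Cemip differed by -0.45 (-0.70 to -0.21) in log2 ratio, and Hyal2 had 1.29 times the counts of Cemip in the control and 0.945 times in Myl3-KO. Added together, the degrading genes had 1297.43 and 1050.45 counts (log2 ratio 0.08, -0.04 to 0.20) and the synthases 405 and 298 (-0.06, -0.28 to 0.16). The difference between synthases and degrading genes was -0.14 (-0.39 to 0.11), whose interval includes 0. Over all 36 pairs of the 9 genes, the interval of the difference in log2 ratio left out 0 in 20. Apart from pairs with the scarce Hyal1, the widest gap by counts was that of 1.01 (0.82 to 1.21) between Vcan and Hmmr. By FPKM the log2 ratio was 0.18 for Vcan and 0.30 for Cemip, so Cemip then lay farther from Hmmr (-0.54) than Vcan did.

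Levels were ordered by FPKM, which is scaled per length. In the control Cd44 was the most abundant of the 10 genes with 34.58 FPKM, followed by Hmmr with 25.38, Hyal2 with 23.86, Tnfaip6 with 7.07, Cemip with 4.43, Vcan with 4.18, Has2 with 3.97, Has3 with 1.13, Hyal1 with 0.53 and Has1 with 0.03. Neighbours that did not differ beyond counting error were Hmmr and Hyal2, Cemip and Vcan, and Vcan and Has2. In Myl3-KO the order was Cd44 with 35.75 FPKM, Hyal2 with 23.10, Hmmr with 17.46, Cemip with 5.47, Tnfaip6 with 4.99, Vcan with 4.75, Has2 with 3.69, Has3 with 1.14, Hyal1 with 0.86 and Has1 with 0.21. Here Cemip and Tnfaip6, Tnfaip6 and Vcan, and Has3 and Hyal1 did not differ beyond counting error. The level of Hmmr was thus 1.06 times that of Hyal2 in the control (0.975 to 1.16), while in Myl3-KO Hyal2 was 1.32 times Hmmr (1.18 to 1.48).

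The calls on these genes rest on counting error alone. With a preset coefficient of variation of 0.1 between libraries in edgeR's exact test, none of the 9 genes was called. The adjusted p was then 0.437 for Hmmr, 0.664 for Vcan, 0.773 for Tnfaip6 and 0.945 for Cemip, and at 0.2 and 0.4 it was 1 for each. The number of genes called in the whole table fell to 41 higher and 20 lower at 0.1.

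The enzymes that make or use UDP-sugars or their precursors were mostly at lower levels in Myl3-KO, with 6 of 11 tested called lower and 1 higher, against 16.8% and 18.6% of all genes, and a median log2 ratio of -0.14. With TMM or DESeq2 scaling 8 of the 11 were called lower, Ugdh and Hk1 among them. This list too was written with earlier results of these data known, and no set test was made. Hk2, a hexokinase that traps glucose in the cell, had 1490 and 638 counts (-0.84, -0.97 to -0.70) and was the gene with the largest fall in the list. Pgm2 was at -0.40 (1202 to 699 counts) and Uap1, which makes UDP-N-acetylglucosamine, at -0.32 (1387 to 851). Gnpnat1 was at -0.26 by its counts (-0.40 to -0.12) but at -0.11 by FPKM. Uxs1, which uses UDP-glucuronic acid to make UDP-xylose, was at -0.22, and Gfpt1, the entry enzyme of the hexosamine pathway, at -0.14. Pgm3 went the other way at 0.11 (-0.07 to 0.29) and was not called.

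Ugdh, which makes UDP-glucuronic acid, had 3565 and 2569 counts and -0.09, and Hk1 -0.10, neither called (exact binomial test, adjusted p = 0.0563 and 0.0724). Ugp2 was at 0.00 (1367 and 1043 counts). Gpi1, an enzyme of glycolysis, was called higher by its counts (3718 and 3091, log2 ratio 0.12), but its FPKM went the other way, from 114.63 to 105.99.

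Among the other receptors and binding proteins 3 of 7 tested were called higher and 1 lower, against 18.6% and 16.8% of all genes. Stab2, a scavenger receptor for hyaluronan, had 103 and 114 counts (0.53, 0.14 to 0.93), Tlr4 had 372 and 342 (0.26, 0.05 to 0.48) and Habp4 had 1090 and 974 (0.22, 0.10 to 0.35). The call on Tlr4 (exact binomial test, adjusted p = 0.0450) was lost with TMM or DESeq2 scaling and without the filter on low counts. C1qbp, a mainly mitochondrial protein also known as a hyaluronan-binding protein, was called lower with 4222 and 2746 counts (-0.23, -0.30 to -0.16). Tlr2 had 499 and 443 counts and was not called, and Lyve1, the receptor of lymphatic vessels, had 0 in both libraries.

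RNA for the proteins that build the aggrecan coat was nearly absent. Of 7 link proteins and lecticans other than versican, Acan, Hapln1, Hapln2 and Bcan had 0 counts in both libraries, which allows up to 0.170 and 0.223 CPM. Hapln4 alone could be tested, with 65 and 45 counts (-0.14, -0.73 to 0.43) and no call. RNA for the partners of TSG-6 was also scarce, with Itih1, Itih3 and Ambp at 0 in both and Itih2 (14 and 22 counts) and Ptx3 (10 and 12) not called.

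Among the other degrading enzymes, the lysosomal enzymes Gusb (3029 and 2416 counts) and Hexa (1437 and 1167) and the surface protein Tmem2 (1083 and 874), which is related to CEMIP, were not called. Hyal4, Hyal5, Hyal6 and Spam1 had 0 in both libraries. Of the 5 tested ADAMTS proteases that cut versican 0 were called, with Adamts5 at 641 and 531 counts (0.11), Adamts1 at 625 and 548 (0.20) and Adamts4 at 284 and 243 (0.16). Of these 3, Adamts1 alone had an interval of the log2 ratio that left out 0 (0.03 to 0.36), with an adjusted p of 0.0590 by the exact binomial test.

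Of 7 proteins that tie CD44 to the cytoskeleton or shed it, 3 were called higher and 1 lower, beside 18.6% and 16.8% of all genes. Mmp14, a membrane protease that can cut CD44, had 4997 and 4834 counts (0.34, 0.28 to 0.40), and moesin (Msn), which links CD44 to actin, had 8904 and 8329 (0.29, 0.25 to 0.33). Nf2 was at 0.09, a call that was lost with TMM or DESeq2 scaling, and radixin (Rdx) was lower at -0.14 (4544 and 3155). The sheddases Adam10 (4312 and 3217) and Adam17 (965.70 and 708) and the linker Ezr (950 and 803) were not called.

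Of 7 inflammatory genes tested beside Tnfaip6, 1 was called higher and 0 lower, a share near that of all genes for the calls higher (18.6%, and 16.8% for those lower). Il6 had 8 and 17 counts (1.47, 0.18 to 2.89), a call (exact binomial test, adjusted p = 0.0437) that was lost without the filter on low counts. Cxcl1 (471 and 318 counts, -0.18), Nfkbia (749 and 610, 0.09) and Tnfaip3 (232 and 173, -0.04) were not called. Ptgs2, the gene of cyclooxygenase 2, had 190 and 111 counts and -0.39 (-0.74 to -0.04), which missed the threshold (exact binomial test, adjusted p = 0.0630). Tnf and Il1b had 0 in both libraries.

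Over all 9 lists, 57 of 79 genes could be tested, 9 were called higher and 18 lower, against 18.6% and 16.8% of all genes, and 15 had 0 in both libraries. The median log2 ratio of the 57 was -0.04. With a preset coefficient of variation of 0.1, Hk2 was the single gene of these lists still called.

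**Figure D4:**
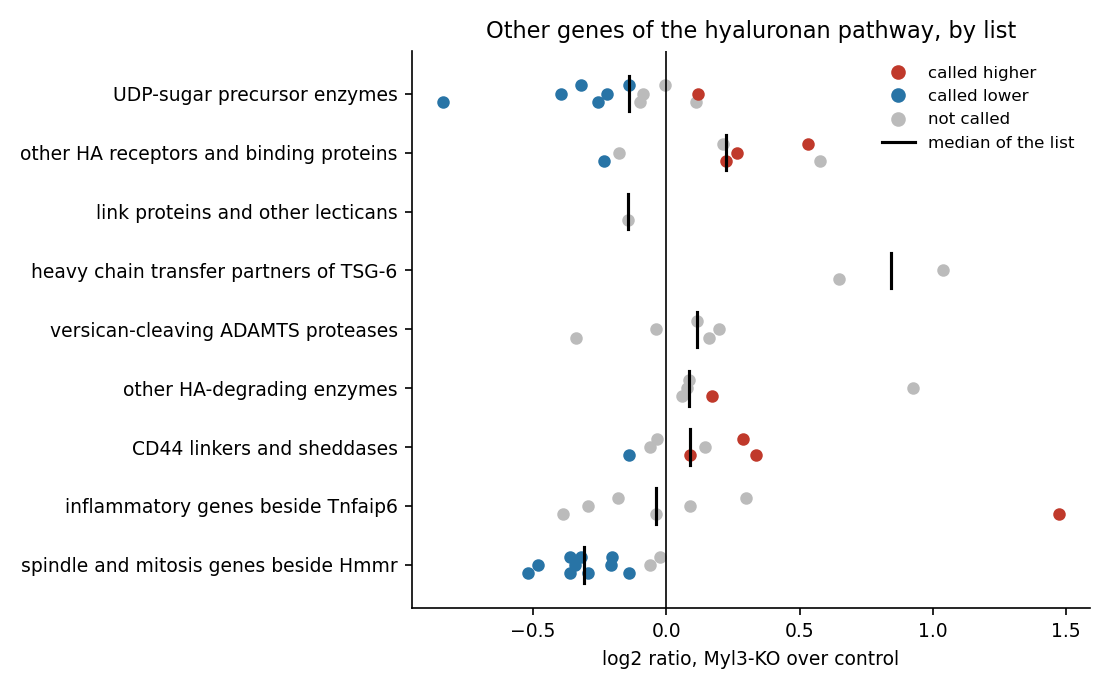
Log2 ratio of Myl3-KO over control for the 57 tested genes of the 9 lists around hyaluronan (points, 1 gene each; red called higher, blue called lower, grey not called; black bars the median of each list). The spindle and mitosis genes lie at or below 0 with a median of -0.31, the UDP-sugar enzymes have a median of -0.14, and Il6 stands at 1.47 on 8 and 17 counts.

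The deposited gene descriptions named hyaluronan for 19 genes, of which 7 are among the 10 described above. Of the 19 genes 10 could be tested, 3 were called higher and 1 lower (18.6% and 16.8% of all genes), and 6 had 0 in both libraries. The genes called were Cemip, Habp4, Hmmr and Mgea5, an enzyme that removes O-linked N-acetylglucosamine from proteins, which had 3223 and 2888 counts (0.23, 0.15 to 0.30).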

How the data were processed

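For each gene the authors deposited an expected count and an FPKM value in 1 control and 1 Myl3-KO library. The aligner, counting tool and strand setting are not given in the sources used here, and the submitters' processing notes name GRCm38 (mm10). For Has2, Hmmr, Tnfaip6 and Cemip, which have a single coding transcript, count and FPKM gave close to its annotated length, so these FPKM values fit the same library totals. For Has1, with an FPKM of 0.03 and 0.21, rounding makes the implied length imprecise. Expected counts were rounded before intervals and the two-sided exact binomial test (at least 10 counts over both libraries, Benjamini-Hochberg over 12431 genes). With 1 library per genotype no replicate test could be made. Differences between 2 genes are log2 odds ratios with exact conditional intervals, without a test. Alternatives were TMM (edgeR 4.0.16) and DESeq2 1.42.0 size factors, other filters, a preset coefficient of variation (edgeR's exact test), 1 count added and FPKM ratios. Python 3.11.15, scipy 1.17.1 and R 4.3.3 were used. The test was checked on counts simulated with counting noise only, so that check does not cover a spread between libraries. Gene positions came from GENCODE M21, promoters from RefSeq (GRCm38.p6). The 10 genes and all lists were chosen with earlier results of these data known. Named were the 10 genes, every called gene of the lists and up to 3 others per list by count, markers with the 2 largest counts or at 0, genes overlapping the 10, and called genes whose description names hyaluronan. Genes named outside this rule were chosen after their values were seen. The result of 1 gene of the lists is not reported here.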

Additional observations from a re-analysis of the deposited data

How the results depend on the processing

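No paired analysis was possible because each genotype has 1 library, and no library could be left out. With TMM or DESeq2 scaling, no filter, or at least 10 counts in each library, the 10 genes kept 2 calls higher and 2 lower and the list genes had 7 or 8 higher and 18 to 20 lower. With edgeR's exact test the calls in the whole table, from 2307 higher and 2090 lower, fell to 41 and 20 at a preset coefficient of variation of 0.1, 3 and 1 at 0.2, and 1 and 0 at 0.4. Among the 10 genes 0 were called higher and 0 lower at each, and among the list genes 0 higher at each and 1, 0 and 0 lower. At 0.4 the unadjusted p was under 0.05 for 25 genes. How far cultures of 1 genotype vary was not measured, so whether a spread of 0.1 is too wide or too narrow was not tested. In FPKM ratios, chosen for list genes after seeing the data, Gpi1 reversed to -0.11, and Vcan moved to 0.18, Nf2 to 0.01 and Gnpnat1 to -0.11. Depth limits Has1 and Hyal1 most, where the intervals span more than a doubling.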
